A study of Homo sapiens with 30 samples.

Results

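The 10 Kruppel-like factors KLF2, KLF3, KLF4, KLF5, KLF6, KLF9, KLF10, KLF11, KLF13 and KLF16 were followed in the established line A549, which comes from a human lung adenocarcinoma, by bulk RNA sequencing. They were taken by name from a deposited table of 26801 genes, and all 10 were found in it. The 30 libraries formed 10 groups of 3. Cells carried an RSRP1 knockout, written KOA, or were wild type, written WTA. They either received a magnetic exposure with the label 2H, written EX, or received none, written NE. The remaining label parts, iR and D3, are kept as names because the sources used here do not give their meaning. The knockout groups were KOA_EX and KOA_NE, iR_KOA_EX and iR_KOA_NE, and iR_KOA_D3_EX and iR_KOA_D3_NE. The wild-type groups were iR_WTA_EX and iR_WTA_NE, and iR_WTA_D3_EX and iR_WTA_D3_NE, so that no wild type without iR was compared. All groups share the A549 background, and the sources used here do not say whether the knockout is 1 clone or which part of RSRP1 was removed.

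Kruppel-like factors are transcription factors that bind GC-rich DNA, the GC box and the CACCC box, through zinc fingers at the end of the protein, and they differ in the partners their other end recruits. KLF9, KLF10, KLF11, KLF13 and KLF16 can bind the corepressor SIN3A, KLF3 recruits the corepressor CTBP, and KLF2, KLF4, KLF5 and KLF6 are mostly known as activators. In epithelial cells several members are early responders to growth factors, TGF-beta and stress, and KLF5 is known for supporting proliferation of epithelial cells, while KLF4 and KLF6 are known for restraining it.

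The libraries held 34428890 to 38695271 reads over the genes whose reads could be recovered from the deposited values, so depth differed little between groups. RSRP1, the targeted gene, stood at 2.09 to 7.95 FPKM (fragments scaled to transcript length and to the mapped fragments of the library) in the 18 knockout libraries and at 37.4 to 63.4 FPKM in the 12 wild-type libraries. HSPA1B, a heat shock chaperone, stood at 155 to 494 FPKM in the 15 exposed libraries and at 9.85 to 14.5 FPKM in the 15 unexposed ones, though its near-identical copy HSPA1A may have exchanged reads with it. Groups with and without iR differed in both genes. RSRP1 had means of 2.16 and 2.43 FPKM in KOA_EX and KOA_NE, and of 6.15 to 7.68 FPKM in the knockout groups with iR. HSPA1B had a mean of 435 FPKM in KOA_EX and of 208 to 257 FPKM in the exposed groups with iR. The part of these differences in the results on iR was not tested. All 4 epithelial markers reached 1 FPKM, KRT8 at 892 FPKM or more and EPCAM only at 0.402 to 1.85 FPKM, and all 5 genes typical of A549 did so too. The summed endothelial markers ran from 0.294 to 1.32 FPKM in knockout libraries and from 0.0377 to 0.11 FPKM in wild-type libraries. Of these, CDH5 was the one that reached 1 FPKM, while PECAM1, VWF, KDR and TEK stayed under 0.1 FPKM, and the part of this difference in the results on KLF2 and KLF4 was not tested. Of the 3 leukocyte markers in the table CD68 alone reached 1 FPKM, and of the 5 fibroblast markers COL1A1 alone did, with COL1A2 and DCN at or near 0.

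The factors differed widely in level. Per length, KLF13 was the highest with a median of 26.8 FPKM over the 30 libraries, followed by KLF10 at 18.5 FPKM, KLF5 at 13.9 FPKM and KLF6 at 10.0 FPKM. KLF16 had a median of 7.66 FPKM and KLF3 of 7.55 FPKM. This order holds for the median over all libraries, of which 18 are knockouts. KLF10 had a higher mean than KLF13 in iR_KOA_EX (32.3 and 24.9 FPKM) and in all 4 wild-type groups, by the least in iR_WTA_D3_NE (15.5 and 15.4 FPKM), where their libraries overlapped. KLF16 had a higher mean than KLF13 in iR_WTA_EX and iR_WTA_NE, and KLF6 in iR_WTA_EX. KLF9 at 2.05 FPKM, KLF4 at 1.97 FPKM, KLF11 at 1.65 FPKM and KLF2 at 0.855 FPKM formed the low end. KLF2 rested on 22 to 234 reads per library, KLF4 on 92 to 393, KLF11 on 101 to 586 and KLF9 on 168 to 862, while every other member had at least 432 reads in each library. All 10 passed the requirement of 1 FPKM in at least 3 libraries, as did 12086 genes. The 10 group means of log2(FPKM + 1) spanned 2.19 for KLF13 and 0.31 for KLF3, the widest and narrowest of the family. For 8 of the 10 members the span reached 1 or more, as it did for 22.1 percent of all tested genes.

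**Figure D1:**
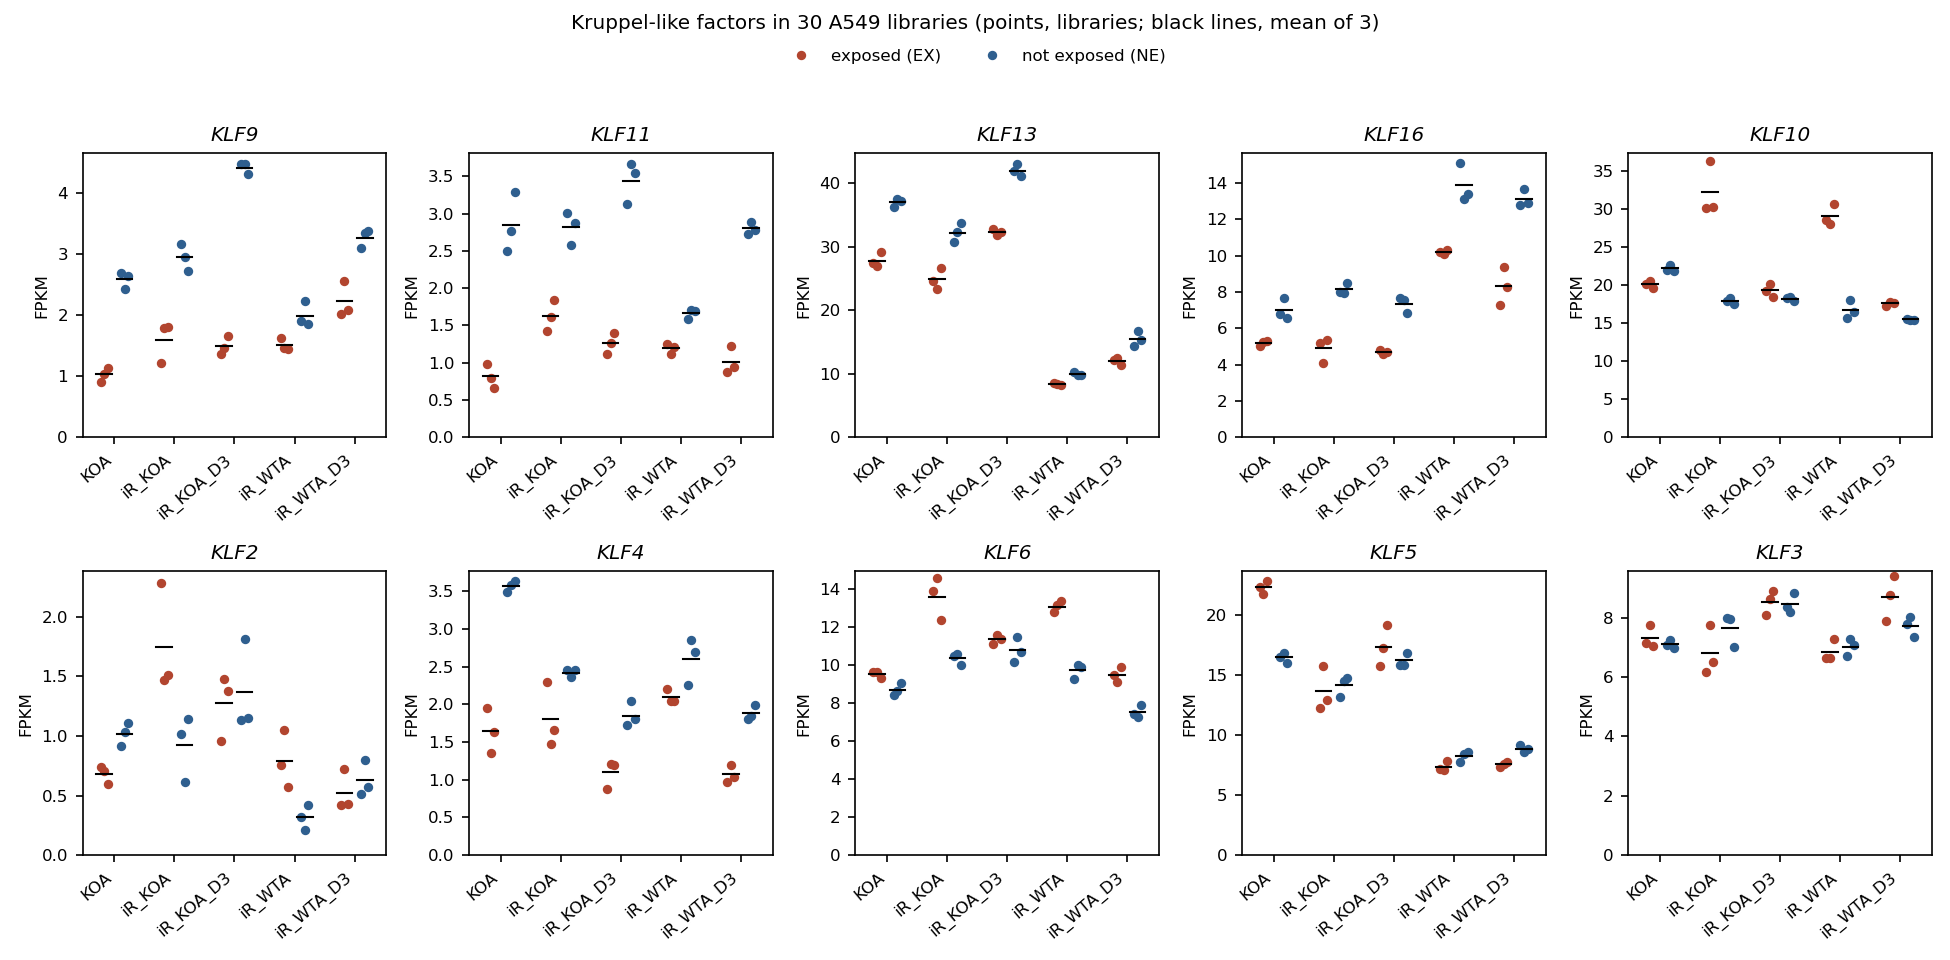
FPKM (vertical axis, from 0) of each Kruppel-like factor in every library; red points are exposed and blue points unexposed libraries of the 5 backgrounds along the horizontal axis, and black lines are means of 3. KLF9, KLF11, KLF13 and KLF16 sit lower in exposed than in unexposed libraries of every background, and KLF13 is highest in knockout libraries.

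The first question is what the magnetic exposure did to the family in each of the 5 backgrounds. KLF9, KLF11, KLF13 and KLF16 fell in all 5, KLF4 fell in 4, and KLF10 and KLF6 rose in 3 each. KLF2 rose in 2 backgrounds, KLF5 rose in 1 and fell in another, and KLF3 passed in none. How many of all tested genes passed in the same direction in several backgrounds was not counted. Here and below, such tallies over backgrounds are therefore descriptions. Differences are exposed minus unexposed on the log2(FPKM + 1) scale, which understates changes of genes near 1 FPKM. They were tested with limma in one fit of all groups, with Benjamini-Hochberg adjustment over all 12086 genes and a threshold of 0.05. In KOA, 1 member rose and 6 fell, beside 18.8 percent of all tested genes called higher and 22.7 percent called lower. In iR_KOA, 3 rose and 5 fell, beside 13.1 percent higher and 22.3 percent lower. In iR_KOA_D3 no member rose and 5 fell, beside 17.3 percent higher and 27.8 percent lower. In iR_WTA, 3 rose and 4 fell, beside 11.4 percent higher and 17.2 percent lower. In iR_WTA_D3, 2 rose and 6 fell, beside 15.3 percent higher and 26.5 percent lower. The median difference of the 10 members was -0.31 in KOA, -0.22 in iR_KOA, -0.21 in iR_KOA_D3, -0.18 in iR_WTA and -0.27 in iR_WTA_D3, where the median of all tested genes lay between -0.051 and -0.025. The labels do not say that the 3 libraries of a group were separate cultures, so the p-values measure the spread between these libraries, which may be technical. As the RNA is from bulk cultures, fewer cells with a transcript and less of it per cell cannot be told apart.

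**Figure D2:**
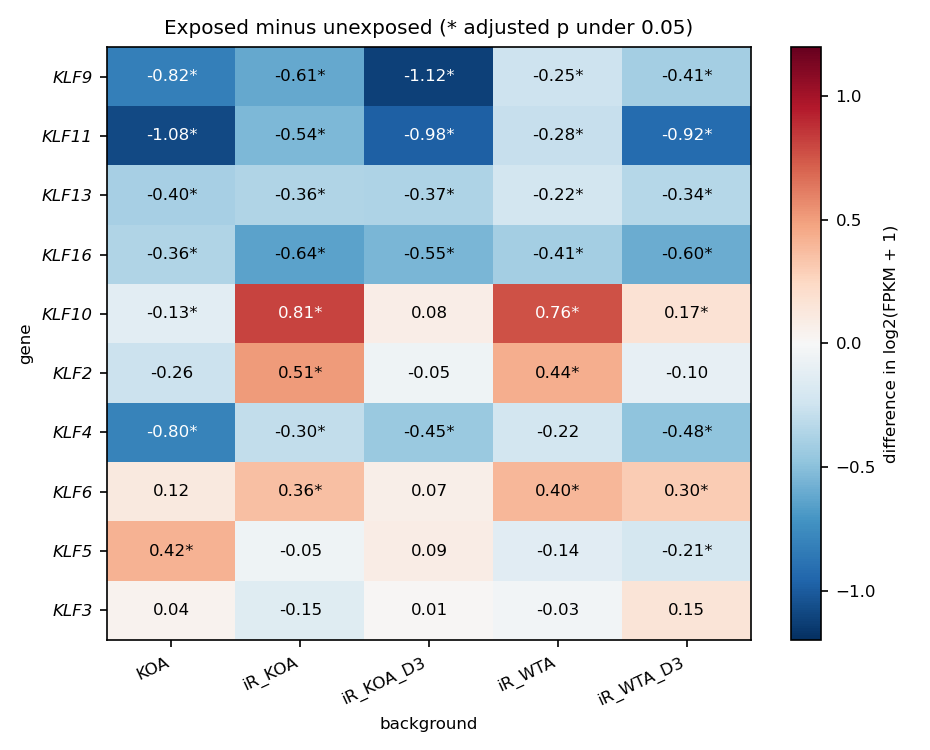
Exposed minus unexposed difference in log2(FPKM + 1) for the 10 factors (rows) in 5 backgrounds (columns), blue for lower and red for higher in exposed libraries, with an asterisk where the adjusted p was under 0.05. The top 4 rows, KLF9, KLF11, KLF13 and KLF16, are lower throughout, from -0.22 to -1.12, and KLF10 reaches 0.81 in iR_KOA.

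The DNA before the start of KLF9, KLF13, KLF16 and KLF4 is shown because these genes fell with exposure, KLF4 in 4 backgrounds and the others in all 5. Each line holds the 250 bases before the annotated start, 5′ to 3′ on the gene's strand, from RefSeq on GRCh38.p14. Capitals mark the GC box GGGCGG on either strand. None of these bases lies in an annotated exon of GENCODE v29, whose nearest start lies 33 bases downstream of the RefSeq start for KLF9, 20 for KLF13, 11 for KLF16 and 3 for KLF4. For KLF9 the RefSeq start matched no GENCODE transcript start within 20 bases, so the counts for its window hold for the RefSeq start.
KLF9, chr9:70414658-70414907, minus strand: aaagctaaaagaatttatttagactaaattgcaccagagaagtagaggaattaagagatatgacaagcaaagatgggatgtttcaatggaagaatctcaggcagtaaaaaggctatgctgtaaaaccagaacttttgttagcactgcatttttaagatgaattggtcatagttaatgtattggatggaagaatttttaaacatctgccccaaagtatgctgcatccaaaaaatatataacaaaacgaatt
KLF13, chr15:31326585-31326834, plus strand: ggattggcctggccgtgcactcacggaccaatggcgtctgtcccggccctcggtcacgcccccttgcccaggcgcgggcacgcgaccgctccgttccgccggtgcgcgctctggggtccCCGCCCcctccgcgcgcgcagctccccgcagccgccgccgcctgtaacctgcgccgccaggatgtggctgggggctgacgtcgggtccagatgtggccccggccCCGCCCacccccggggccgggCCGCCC
KLF16, chr19:1863580-1863829, minus strand: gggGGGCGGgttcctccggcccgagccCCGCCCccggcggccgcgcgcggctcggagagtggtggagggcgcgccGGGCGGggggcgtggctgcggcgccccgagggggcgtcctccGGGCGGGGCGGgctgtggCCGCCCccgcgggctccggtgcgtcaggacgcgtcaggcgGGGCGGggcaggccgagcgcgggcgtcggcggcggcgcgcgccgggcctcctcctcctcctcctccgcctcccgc
KLF4, chr9:107489770-107490019, minus strand: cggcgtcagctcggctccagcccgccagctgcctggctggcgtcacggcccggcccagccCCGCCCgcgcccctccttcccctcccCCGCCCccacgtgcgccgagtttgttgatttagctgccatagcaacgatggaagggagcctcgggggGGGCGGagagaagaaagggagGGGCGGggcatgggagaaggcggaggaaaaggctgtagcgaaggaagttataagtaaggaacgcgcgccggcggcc
The window of KLF9 held no GC box and was 32.4 percent G and C. KLF13 held 3 GC boxes at 78.8 percent G and C, KLF16 held 7 at 86.4 percent, 2 of them overlapping, and KLF4 held 4 at 69.2 percent. The window of KLF16 lies inside the longer span that RefSeq gives the gene, and that of KLF4 inside the span that GENCODE gives KLF4. A GC box occurred in 42.6 percent of the 35116 windows in the RefSeq table. The heat shock element, searched on both strands as GAANNTTC and as TTCNNGAA, had no match in any of the 10 windows found for 8 members, where 5.78 percent and 6.62 percent of all windows held one. Both starts of KLF11 lie inside the gene and share bases with its exons. Their windows held 2 and 6 GC boxes, and the second held the cAMP response element TGACGTCA, found in 1.65 percent of all windows. CACCC, present in 54.7 percent of all windows, occurred once in the window of KLF13, where it shares a base with a GC box, and in none of the windows of KLF9, KLF16 and KLF4. A match describes the letters in the window and is not a binding site.

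**Figure D3:**
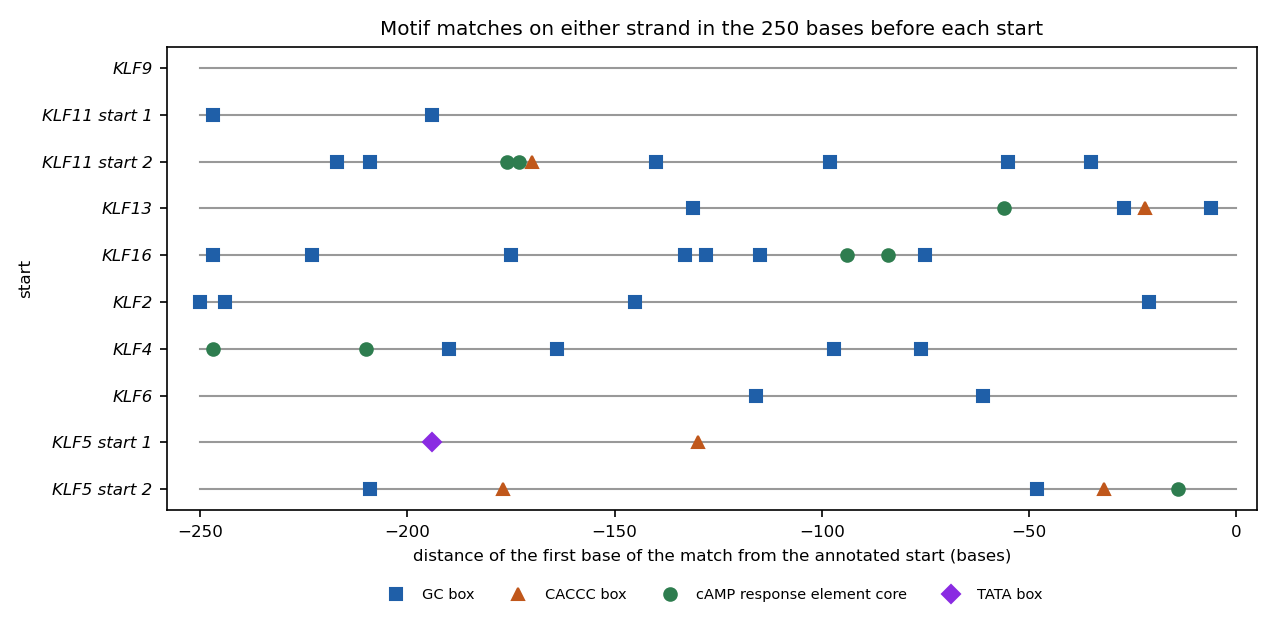
Positions of motif matches on either strand (horizontal axis, bases from the annotated start to the first base of the match) in the 250 bases before 10 starts of 8 members, 1 line per start. GC boxes run from 0 before KLF9 to 7 before KLF16, and a TATA box (TATAAA, in 10.7 percent of all windows) appears only before the first start of KLF5.

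KLF11, a TGF-beta-inducible repressor that binds SIN3A, fell most of all members in KOA. It lies at chr2:10043550-10054836 in RefSeq on GRCh38.p14. It stood at 0.987, 0.8 and 0.665 FPKM in KOA_EX, against 2.5, 2.76 and 3.29 FPKM in KOA_NE. The difference was -1.08 with an SE of 0.079 (adjusted p = 3.86e-11), or 0.286 times the unexposed mean. The exposed and unexposed libraries did not overlap. In iR_KOA_D3 it stood at 1.12, 1.26 and 1.4 FPKM in exposed libraries, against 3.13, 3.66 and 3.54 FPKM in unexposed ones, a difference of -0.98 ± 0.079 (SE, adjusted p = 4.37e-10). In iR_WTA_D3 the values were 0.877, 1.22 and 0.937 FPKM exposed, against 2.72, 2.89 and 2.78 FPKM unexposed, a difference of -0.92 ± 0.079 (SE, adjusted p = 1.63e-09). Without D3 the iR libraries showed smaller falls. In iR_KOA, KLF11 stood at 1.43, 1.61 and 1.84 FPKM exposed and at 3.01, 2.58 and 2.87 FPKM unexposed, a difference of -0.54 (adjusted p = 1.04e-05). In iR_WTA it stood at 1.25, 1.11 and 1.21 FPKM exposed and at 1.59, 1.71 and 1.69 FPKM unexposed, a difference of -0.28 (adjusted p = 0.00824). In every background all 3 exposed libraries lay under all 3 unexposed ones. With a pseudocount of 0.1 the same differences came to -1.69, -1.38, -1.39, -0.76 and -0.45, in the order given here.

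KLF9, a repressor induced by glucocorticoids and thyroid hormone in many tissues, was the member with the largest fall in the iR_KOA_D3 background. Its gene spans chr9:70384604-70414657. It stood at 1.36, 1.47 and 1.66 FPKM in iR_KOA_D3_EX, against 4.48, 4.48 and 4.31 FPKM in iR_KOA_D3_NE, a difference of -1.12 ± 0.079 (SE, adjusted p = 4.4e-11). In KOA it stood at 0.901, 1.04 and 1.14 FPKM exposed, against 2.7, 2.43 and 2.64 FPKM unexposed, a difference of -0.82 (adjusted p = 6.43e-09). The exposed mean was 0.338 times the unexposed one in iR_KOA_D3 and 0.397 times in KOA. In iR_KOA the exposed libraries had 1.21, 1.79 and 1.81 FPKM and the unexposed ones 3.17, 2.96 and 2.72 FPKM, a difference of -0.61 (adjusted p = 2.28e-06). In the wild type KLF9 fell as well. In iR_WTA_D3 the values were 2.02, 2.57 and 2.08 FPKM exposed and 3.1, 3.35 and 3.38 FPKM unexposed, a difference of -0.41 (adjusted p = 0.000189). In iR_WTA they were 1.63, 1.46 and 1.44 FPKM exposed and 1.9, 2.23 and 1.85 FPKM unexposed, a difference of -0.25 (adjusted p = 0.0181). No exposed library reached an unexposed one of the same background. The fall in iR_WTA lost its call without iR_WTA_EX replicate 2 (-0.24), iR_WTA_EX replicate 3 (-0.23) or iR_WTA_NE replicate 2 (-0.20), and under quantile normalization (-0.19).

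KLF13, a repressor also known as an activator of the chemokine CCL5 in T cells, has the highest median over all libraries and fell in all 5 backgrounds. It lies at chr15:31326835-31435665. It stood at 27.4, 26.9 and 29.2 FPKM in KOA_EX, against 36.2, 37.5 and 37.2 FPKM in KOA_NE, a difference of -0.40 ± 0.049 (SE, adjusted p = 4.17e-07). In iR_KOA it stood at 24.6, 23.4 and 26.7 FPKM exposed, against 30.7, 32.3 and 33.7 FPKM unexposed (-0.36, adjusted p = 4.75e-06). In iR_KOA_D3 it stood at 32.8, 31.8 and 32.4 FPKM exposed, against 41.9, 43.0 and 41.2 FPKM unexposed (-0.37, adjusted p = 1.55e-06). The exposed mean was 0.753 to 0.773 times the unexposed one in these 3 backgrounds. In iR_WTA_D3 the ratio was 0.776, and the values were 12.1, 12.4 and 11.4 FPKM exposed and 14.3, 16.8 and 15.3 FPKM unexposed (-0.34, adjusted p = 6.06e-06). In iR_WTA they were 8.6, 8.41 and 8.2 FPKM exposed and 10.2, 9.84 and 9.75 FPKM unexposed (-0.22, adjusted p = 0.00156). Exposed and unexposed libraries were separate in all 5 backgrounds.

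KLF16, a SIN3A-binding repressor with a role in metabolic and dopamine-receptor genes, fell in every background as well. Its gene spans chr19:1852399-1876536. It stood at 5.21, 4.11 and 5.35 FPKM in iR_KOA_EX, against 7.98, 7.94 and 8.51 FPKM in iR_KOA_NE, a difference of -0.64 ± 0.074 (SE, adjusted p = 4.55e-07). In iR_WTA_D3 it stood at 7.31, 9.37 and 8.27 FPKM exposed and at 12.8, 13.7 and 12.9 FPKM unexposed (-0.60, adjusted p = 5.2e-07). In iR_KOA_D3 it stood at 4.83, 4.56 and 4.69 FPKM exposed and at 7.65, 7.55 and 6.86 FPKM unexposed (-0.55, adjusted p = 1.55e-06). These 3 falls took it to between 0.601 and 0.638 times the unexposed mean. In iR_WTA the values were 10.2, 10.1 and 10.3 FPKM exposed and 15.1, 13.1 and 13.4 FPKM unexposed (-0.41, adjusted p = 0.000171). In KOA they were 5.04, 5.26 and 5.31 FPKM exposed and 6.77, 7.66 and 6.55 FPKM unexposed (-0.36, adjusted p = 0.000311). Again no exposed library overlapped an unexposed one of its own background.

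KLF10, the TGF-beta-inducible early factor and the closest relative of KLF11, moved the other way in the iR libraries without D3. It stood at 30.1, 36.3 and 30.3 FPKM in iR_KOA_EX, against 17.9, 18.3 and 17.5 FPKM in iR_KOA_NE, a difference of 0.81 ± 0.053 (SE, adjusted p = 2.71e-11). In iR_WTA it stood at 28.6, 28.0 and 30.6 FPKM exposed, against 15.7, 18.1 and 16.4 FPKM unexposed, a difference of 0.76 ± 0.053 (SE, adjusted p = 7.75e-11). These were rises of 1.8 times and 1.74 times the unexposed mean. With D3 the exposed wild type had 17.3, 17.8 and 17.6 FPKM and the unexposed one 15.6, 15.4 and 15.4 FPKM, a rise of 0.17 (adjusted p = 0.01). The D3 knockout had 19.2, 20.2 and 18.5 FPKM exposed and 18.3, 18.4 and 17.9 FPKM unexposed, a difference of 0.08 that did not pass (adjusted p = 0.23). Without iR, KLF10 was lower after exposure: 20.2, 20.5 and 19.6 FPKM in KOA_EX, against 22.0, 22.6 and 21.9 FPKM in KOA_NE. That fall of -0.13 passed narrowly (adjusted p = 0.0436). It lost its call when any 1 of the 6 libraries was left out (-0.15 to -0.12) and under both other scalings between libraries (median-of-ratios -0.12, quantile normalization -0.13), and with no filter on low values (-0.13). Ordered by mean, iR_KOA_EX at 32.3 ± 3.5 FPKM and iR_WTA_EX at 29.1 ± 1.4 FPKM overlapped each other (SD, n = 3 each) and stood apart from the other 8 groups, which ran from 15.5 to 22.2 FPKM.

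KLF6, an early response factor with tumour-suppressor roles in epithelia, rose in the same 3 iR backgrounds. Its gene spans chr10:3775996-3785209. It stood at 13.9, 14.6 and 12.4 FPKM in iR_KOA_EX, against 10.5, 10.6 and 10.0 FPKM in iR_KOA_NE (0.36 ± 0.049 SE, adjusted p = 4.14e-06). In iR_WTA it stood at 12.8, 13.2 and 13.4 FPKM exposed, against 9.29, 10.0 and 9.89 FPKM unexposed (0.40, adjusted p = 1.15e-06). In iR_WTA_D3 it stood at 9.51, 9.11 and 9.91 FPKM exposed, against 7.41, 7.29 and 7.92 FPKM unexposed (0.30, adjusted p = 2.79e-05). The 3 rises came to 26.1, 31.4 and 34.8 percent, the smallest in iR_WTA_D3. The 2 other differences, 0.07 in iR_KOA_D3 and 0.12 in KOA, did not pass (adjusted p = 0.244 and 0.0554). The difference in KOA passed without KOA_NE replicate 3 (0.14), under both other scalings (0.13 each) and with only KOA_EX and KOA_NE in the fit (0.12).

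KLF2, an activator best known for quiescence of endothelium and T cells, rose after exposure in the iR libraries without D3. It lies at chr19:16324826-16328685. It stood at 2.28, 1.47 and 1.51 FPKM in iR_KOA_EX, against 1.02, 0.614 and 1.14 FPKM in iR_KOA_NE, a difference of 0.51 ± 0.13 (SE, adjusted p = 0.0031). In iR_WTA it stood at 0.754, 1.05 and 0.575 FPKM exposed, against 0.317, 0.213 and 0.422 FPKM unexposed, a difference of 0.44 (adjusted p = 0.0119). The exposed means were 1.9 and 2.49 times the unexposed ones, and the libraries did not overlap. The call in iR_WTA was lost without iR_WTA_EX replicate 2 (0.34) or iR_WTA_NE replicate 2 (0.38). The differences of -0.05 in iR_KOA_D3, -0.10 in iR_WTA_D3 and -0.26 in KOA did not pass, though the last one did with only KOA_EX and KOA_NE in the fit (-0.26). KLF2 had the largest SE of the family, and its 10 group means form a run in which each overlaps the next.

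KLF4, a factor known for growth arrest and differentiation of epithelia, fell in 4 backgrounds. Its gene spans chr9:107484852-107489769. It stood at 1.95, 1.35 and 1.63 FPKM in KOA_EX, against 3.49, 3.58 and 3.63 FPKM in KOA_NE, a difference of -0.80 ± 0.088 (SE, adjusted p = 7.62e-08). In iR_WTA_D3 it stood at 0.968, 1.2 and 1.04 FPKM exposed, against 1.81, 1.84 and 1.99 FPKM unexposed (-0.48, adjusted p = 0.000115). In iR_KOA_D3 it stood at 0.871, 1.21 and 1.2 FPKM exposed, against 1.72, 2.04 and 1.8 FPKM unexposed (-0.45, adjusted p = 0.000197). The exposed means were 0.46 to 0.591 times the unexposed ones in these backgrounds. In iR_KOA the values were 2.29, 1.47 and 1.66 FPKM exposed and 2.46, 2.36 and 2.45 FPKM unexposed (-0.30, adjusted p = 0.0112). That call was lost without iR_KOA_EX replicate 2 (-0.21) and with only iR_KOA_EX and iR_KOA_NE in the fit (-0.30). In iR_WTA the difference of -0.22 did not pass (adjusted p = 0.0709) but did without iR_WTA_NE replicate 1 (-0.29).

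KLF5, an activator that supports epithelial proliferation, rose in KOA alone. Its gene spans chr13:73054976-73077538. It stood at 22.4, 21.8 and 22.9 FPKM in KOA_EX, against 16.5, 16.9 and 16.0 FPKM in KOA_NE, a difference of 0.42 ± 0.067 (SE, adjusted p = 1.72e-05). In iR_WTA_D3 it stood at 7.31, 7.58 and 7.8 FPKM exposed, against 9.15, 8.64 and 8.86 FPKM unexposed, a difference of -0.21 (adjusted p = 0.0159). The exposed mean was 1.36 times the unexposed one in KOA and 0.852 times in iR_WTA_D3. The fall in iR_WTA_D3 lost its call without replicate 1 of iR_WTA_D3_EX or of iR_WTA_D3_NE (-0.19 each) and under median-of-ratios scaling (-0.17). The differences in iR_KOA, iR_KOA_D3 and iR_WTA were -0.05, 0.09 and -0.14 and did not pass.

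KLF3, a CTBP-recruiting repressor known from red cells and fat, was the steadiest member and passed in none of the 15 comparisons. Its gene spans chr4:38664199-38701517. Its 30 libraries lay between 6.17 and 9.41 FPKM, and the group means between 6.81 and 8.69 FPKM. Exposure differences ran from -0.15 in iR_KOA to 0.15 in iR_WTA_D3. The first passed without iR_KOA_EX replicate 2 (-0.24) or iR_KOA_NE replicate 3 (-0.20). The second passed without iR_WTA_D3_EX replicate 1 (0.21) and under median-of-ratios scaling (0.19) and quantile normalization (0.18). The antisense gene KLF3-AS1 overlaps KLF3 and stood at 0.0436 to 0.179 FPKM. As no source states whether reads were counted by strand, reads from the bases that both genes share cannot be assigned to either. Other members overlap annotated genes as well, none of which the deposited table holds. These are AC104794.4 for KLF11, and AC012615.3 and AC012615.4 for KLF16, all on the opposite strand. For KLF13 it is UBE2CP4, on the same strand. Their part in the values of these members was not tested.

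The next question is whether the effect of exposure differed between backgrounds, which was tested on the difference of differences. Without D3, the iR knockout and the iR wild type showed no member past the threshold, beside 0.273 percent of all genes higher and 0.265 percent lower. KLF9 (-0.36), KLF11 (-0.26) and KLF16 (-0.23) were at an unadjusted p under 0.05 in that limma test, with adjusted p between 0.209 and 0.467. With D3, KLF9 alone passed. Its exposure difference of -1.12 in iR_KOA_D3 was 0.71 lower than the -0.41 in iR_WTA_D3, an interaction of -0.71 ± 0.11 (SE, adjusted p = 0.000383), beside 1.24 percent of genes higher and 1.14 percent lower. So the fall of KLF9 was larger in the D3 knockout than in the D3 wild type.

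Between the knockouts with and without iR, 5 members had a higher exposure difference with iR and 1 a lower one, beside 1.66 percent of genes higher and 3.42 percent lower. KLF10 differed by 0.94 ± 0.075 (SE, adjusted p = 4.43e-09), with 0.81 in iR_KOA and -0.13 in KOA. KLF2 differed by 0.78 (adjusted p = 0.0096), KLF11 by 0.54 (adjusted p = 0.00288) and KLF4 by 0.50 (adjusted p = 0.0163). KLF11 and KLF4 fell less with iR, whereas KLF2 and KLF10 were higher after exposure with iR and not without it. KLF6 differed by 0.24 (adjusted p = 0.0398) and KLF5 by -0.48 (adjusted p = 0.00234). The call of KLF4 was lost without KOA_EX replicate 2 (0.42) or iR_KOA_EX replicate 1 (0.38) and with only these 4 groups in the fit (0.50). That of KLF6 held only without KOA_NE replicate 1 or iR_KOA_EX replicate 3, and was lost in the other 10 fits that left out 1 library (0.19 to 0.26), with no filter on low values (0.24) and with only these 4 groups (0.24). The share of FPKM from 13 mitochondrial genes was 24.4 ± 1.0 percent in KOA_EX and 28.4 ± 1.3 percent in KOA_NE (SD, n = 3 each). It was 25.8 ± 2.2 percent in iR_KOA_EX and 24.6 ± 0.31 percent in iR_KOA_NE. Its part in these differences was not tested.

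Between iR_KOA with and without D3, 4 members had a lower exposure difference with D3 and none a higher one, beside 2.4 percent of genes lower and 1.74 percent higher. KLF10 differed by -0.73 ± 0.075 (SE, adjusted p = 2.79e-06), KLF9 by -0.51 (adjusted p = 0.00907), KLF11 by -0.44 (adjusted p = 0.0265) and KLF6 by -0.29 (adjusted p = 0.019). The rise of KLF10 and KLF6 was smaller with D3, and the fall of KLF9 and KLF11 was larger. The count of 4 became 2 without iR_KOA_D3_EX replicate 1 or iR_KOA_D3_NE replicate 2, where KLF6 (-0.27 and -0.25) and KLF11 (-0.39 and -0.40) no longer passed. KLF11 was also lost without iR_KOA_D3_NE replicate 3 (-0.42), iR_KOA_EX replicate 3 (-0.38) or iR_KOA_NE replicate 2 (-0.39), and with no filter on low values (-0.44). With only these 4 groups in the fit KLF10 alone passed, with KLF9 (-0.51), KLF11 (-0.44) and KLF6 (-0.29) short of the threshold. In the wild type, D3 moved the exposure difference of KLF11 by -0.64 ± 0.11 (SE, adjusted p = 0.00216) and that of KLF10 by -0.59 ± 0.075 (SE, adjusted p = 5.33e-05), beside 0.918 percent of genes lower and 0.753 percent higher. KLF10 and KLF11 were thus lower, relative to unexposed cells, in exposed D3 libraries of both genotypes than in exposed libraries without D3. These comparisons share their iR_KOA or iR_WTA libraries. The unexposed means differed with D3 as well. KLF11 in iR_WTA had 1.66 FPKM without D3 and 2.8 FPKM with it unexposed, and 1.19 and 1.01 FPKM exposed. KLF9 in iR_KOA had 2.95 and 4.42 FPKM unexposed, and 1.6 and 1.49 FPKM exposed. KLF10 in iR_WTA had 16.7 and 15.5 FPKM unexposed, and 29.1 and 17.6 FPKM exposed.

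**Figure D4:**
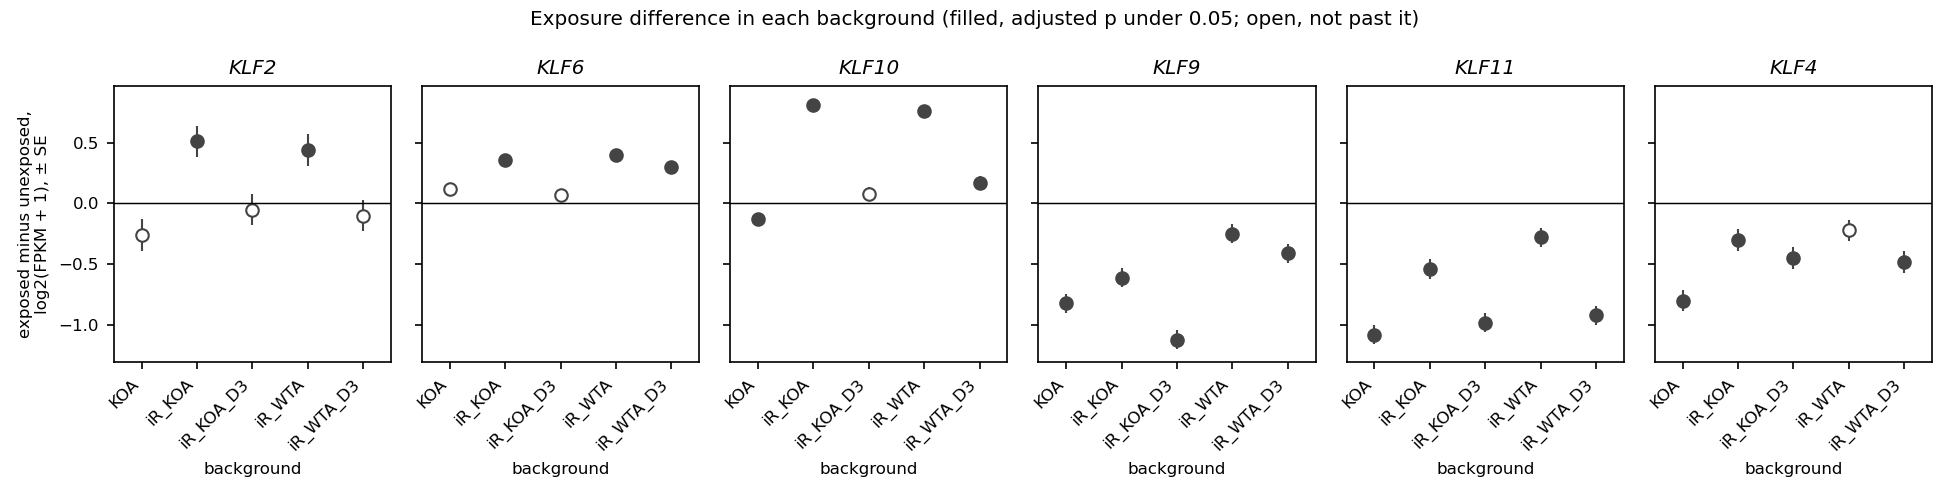
Exposed minus unexposed difference in log2(FPKM + 1) with its standard error for 6 factors in the 5 backgrounds; filled points passed an adjusted p of 0.05 and open points did not. KLF10 stands at 0.81 in iR_KOA and 0.76 in iR_WTA against 0.17 or less elsewhere, and KLF11 falls least in iR_KOA (-0.54) and iR_WTA (-0.28).

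The third question is how the RSRP1 knockout differed from the wild type before any exposure, with iR present. KLF13 was 3.24 times as high in the knockout without D3 and 2.72 times as high with D3, and KLF5, KLF2, KLF9 and KLF11 were higher in both. KLF16 was lower in both. Without D3, 5 members were higher and 1 lower, beside 27.9 percent of all genes higher and 37.4 percent lower. With D3, 7 were higher and 1 lower, beside 24.8 percent higher and 44.3 percent lower. Both counts of higher members include KLF2, which entered the tests through the knockout, so its place among them is only a description. The median difference of the 10 members was 0.25 without D3 and 0.28 with D3, where the median of all tested genes was -0.056 and -0.107, so the D3 values sit on a general shift to lower values in the knockout. The share of FPKM from 13 mitochondrial genes was 24.6 percent in iR_KOA_NE and 21.1 percent in iR_WTA_NE. With D3 it was 29.4 percent in iR_KOA_D3_NE and 22.9 percent in iR_WTA_D3_NE. Its part in the genotype differences and in the D3 differences below was not tested.

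KLF13 stood at 30.7, 32.3 and 33.7 FPKM in iR_KOA_NE, against 10.2, 9.84 and 9.75 FPKM in iR_WTA_NE, a difference of 1.60 ± 0.049 (SE, adjusted p = 1.4e-19). With D3 it stood at 41.9, 43.0 and 41.2 FPKM in the knockout, against 14.3, 16.8 and 15.3 FPKM in the wild type, a difference of 1.39 ± 0.049 (SE, adjusted p = 1.8e-18). All 18 knockout libraries, exposed ones included, had 23.4 to 43.0 FPKM, and all 12 wild-type libraries had 8.2 to 16.8 FPKM. KLF5 showed the same kind of separation. It stood at 13.2, 14.5 and 14.8 FPKM in iR_KOA_NE, against 7.79, 8.43 and 8.57 FPKM in iR_WTA_NE (0.71 ± 0.067 SE, adjusted p = 1.05e-09). With D3 it stood at 15.9, 15.9 and 16.9 FPKM, against 9.15, 8.64 and 8.86 FPKM in the wild type (0.80, adjusted p = 8.34e-11). Over all libraries KLF5 ran from 12.3 to 22.9 FPKM in the knockout and from 7.06 to 9.15 FPKM in the wild type.

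KLF16 was the member that was lower in the knockout. It stood at 7.98, 7.94 and 8.51 FPKM in iR_KOA_NE, against 15.1, 13.1 and 13.4 FPKM in iR_WTA_NE (-0.70 ± 0.074 SE, adjusted p = 8.02e-09). With D3 it stood at 7.65, 7.55 and 6.86 FPKM, against 12.8, 13.7 and 12.9 FPKM in the wild type (-0.76, adjusted p = 1.68e-09). So the lowest KLF16 libraries were the exposed knockouts and the highest the unexposed wild types. KLF2 reached 1 FPKM in 12 of 18 knockout libraries and in 1 of 12 wild-type libraries. It thus entered the tests through the knockout, where it is higher, and its genotype differences are given as a description. KLF2 was 2.91 times the wild-type mean without D3 (a difference of 0.54) and 2.17 times with D3 (0.53), and it is among the 5 and the 7 members counted as higher. KLF9 was 1.48 times without D3 (0.40, adjusted p = 9e-05) and 1.35 times with D3 (0.34, adjusted p = 0.000456). KLF11 was 1.69 times without D3 (0.52, adjusted p = 2.71e-06) and 1.23 times with D3 (0.23, adjusted p = 0.0136). The last call was lost without iR_KOA_D3_NE replicate 2 (0.19). KLF6 and KLF10 passed with D3 alone, at 0.47 (adjusted p = 5.79e-09) and 0.22 (adjusted p = 0.000649), against 0.08 and 0.09 without D3. Whether these genotype differences depend on D3 was not tested. KLF10 without D3 did pass without iR_WTA_NE replicate 2 (0.15) and under median-of-ratios scaling (0.13), as did KLF6 under that scaling (0.12). KLF3 passed with D3 under median-of-ratios scaling (0.21), under quantile normalization (0.19) and with only these 2 groups in the fit (0.12). KLF4 differed by -0.07 without D3 and -0.01 with D3.

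**Figure D5:**
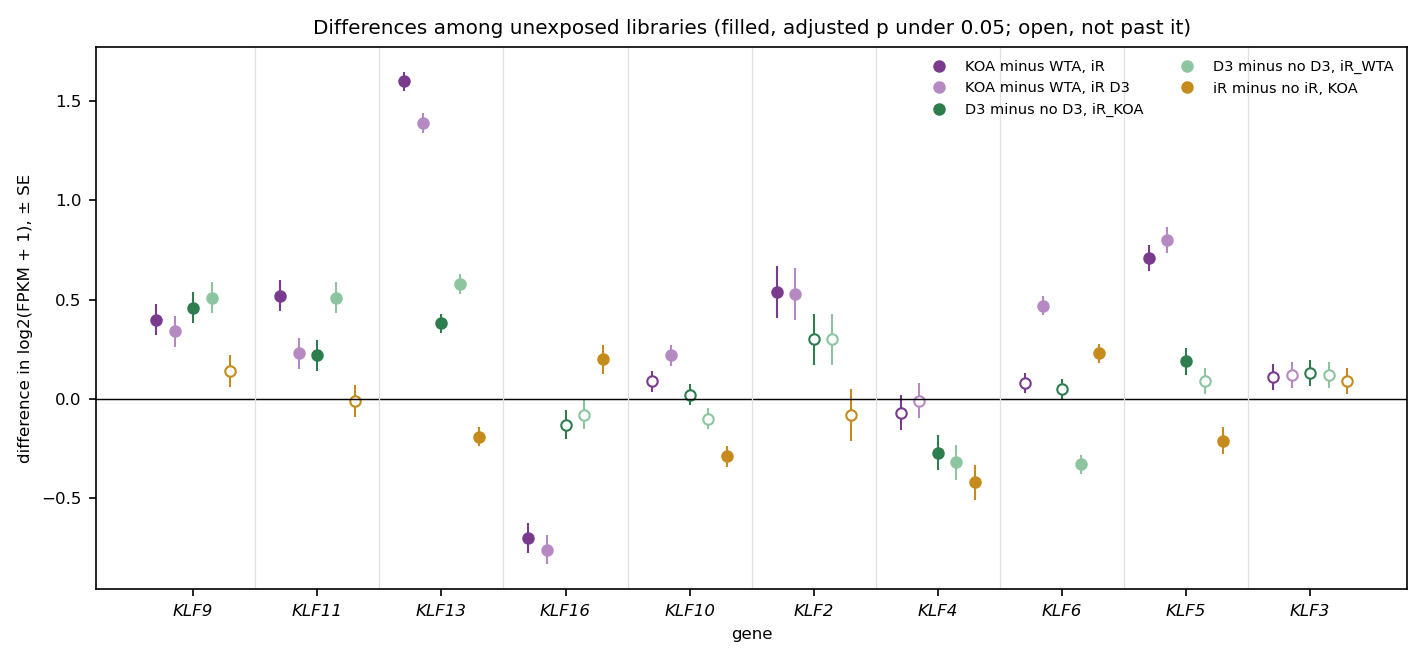
Differences in log2(FPKM + 1) with their standard errors among unexposed libraries for the 10 factors; filled points passed an adjusted p of 0.05 and open points did not. KLF13 reaches 1.60 and 1.39 in the knockout against the wild type (purple), KLF16 lies at -0.70 and -0.76, and the D3 differences (green) of KLF9, KLF11 and KLF13 are above 0 in both genotypes.

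D3 and iR were also compared among unexposed cells. With D3, KLF9, KLF11 and KLF13 were higher in both genotypes and KLF4 was lower in both. In iR_KOA, 4 members were higher and 1 lower with D3, beside 19.2 percent of genes higher and 34.5 percent lower. In iR_WTA, 3 were higher and 2 lower, beside 22.3 percent higher and 26.3 percent lower. The median of the members was 0.16 in iR_KOA and 0.11 in iR_WTA, and that of all tested genes -0.059 and -0.015. KLF13 differed by 0.38 in iR_KOA (adjusted p = 5.42e-07) and by 0.58 in iR_WTA (adjusted p = 5.41e-10). KLF9 differed by 0.46 (adjusted p = 2.64e-05) and 0.51 (adjusted p = 7.15e-06), and KLF11 by 0.22 (adjusted p = 0.0214) and 0.51 (adjusted p = 7.13e-06). In iR_KOA these were rises of 30.6, 49.7 and 22.2 percent, and in iR_WTA of 55.2, 64.2 and 68.1 percent. The D3 call of KLF11 in iR_KOA was lost without iR_KOA_D3_NE replicate 2 (0.18), iR_KOA_D3_NE replicate 3 (0.20) or iR_KOA_NE replicate 2 (0.17), and with a pseudocount of 0.1 (0.28). KLF4 differed by -0.27 in iR_KOA (adjusted p = 0.0137) and by -0.32 in iR_WTA (adjusted p = 0.00413). The call in iR_KOA was lost without iR_KOA_D3_NE replicate 1 (-0.23) and under median-of-ratios scaling (-0.20).

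KLF6 and KLF5 moved with D3 in 1 genotype each, though whether the genotypes differ in this was not tested. KLF6 was lower in iR_WTA_D3_NE than in iR_WTA_NE, by -0.33 (adjusted p = 4.64e-06), against 0.05 in iR_KOA. KLF5 was higher in iR_KOA_D3_NE than in iR_KOA_NE, by 0.19 (adjusted p = 0.0213), a call lost without iR_KOA_D3_NE replicate 3 (0.16) or iR_KOA_NE replicate 1 (0.14). KLF2 had a difference of 0.30 on the log2(FPKM + 1) scale in both genotypes, just short of the threshold (adjusted p = 0.0544 in iR_KOA and 0.0524 in iR_WTA). As a share of the mean without D3, the change was 47.9 percent in iR_KOA (0.923 to 1.37 FPKM) and 98.0 percent in iR_WTA (0.317 to 0.629 FPKM). With a pseudocount of 0.1 KLF2 differed by 0.53 in iR_KOA and by 0.82 in iR_WTA. In iR_KOA it passed without iR_KOA_D3_NE replicate 1 (0.37), iR_KOA_D3_NE replicate 3 (0.36) or iR_KOA_NE replicate 3 (0.38) and under both other scalings (0.35 and 0.33). In iR_WTA it passed without iR_WTA_D3_NE replicate 1 or iR_WTA_NE replicate 3 (0.36 each), with a pseudocount of 0.1 (0.82) and with only the 2 groups in the fit (0.30). Under both other scalings KLF3 (0.22 each) and KLF6 (0.15 each) also passed in iR_KOA. KLF10 in iR_WTA, at -0.10, passed without iR_WTA_NE replicate 1 (-0.15). In the knockout, iR went with higher KLF6 (0.23, adjusted p = 0.000745) and KLF16 (0.20, adjusted p = 0.0388) and with lower KLF4 (-0.42, adjusted p = 0.000626), KLF10 (-0.29, adjusted p = 0.00011), KLF5 (-0.21, adjusted p = 0.0183) and KLF13 (-0.19, adjusted p = 0.00302). Beside these 2 higher and 4 lower members, 18.7 percent of all genes were higher and 19.8 percent lower. The call of KLF5 was lost without KOA_NE replicate 2 (-0.19) or iR_KOA_NE replicate 1 (-0.16). That of KLF16 held only without KOA_NE replicate 2 and was lost without any other of the 6 libraries (0.16 to 0.21) and with no filter on low values (0.20).

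SIN3A, the scaffold that KLF9, KLF10, KLF11, KLF13 and KLF16 can bind, fell with exposure in all 5 backgrounds too. It stood at 7.48, 7.88 and 8.39 FPKM in KOA_EX, against 15.8, 16.1 and 16.4 FPKM in KOA_NE, a difference of -0.94 (adjusted p = 1.54e-13). The differences were -0.89 in iR_KOA_D3, -0.54 in iR_WTA_D3, -0.51 in iR_KOA and -0.37 in iR_WTA, with adjusted p of 4.6e-06 or less. Its exposure difference was lower with D3 in iR_KOA (-0.38, adjusted p = 0.00309) and in the D3 knockout than in the D3 wild type (-0.34, adjusted p = 0.00842), and higher with iR in the knockout (0.43, adjusted p = 0.000336). Of 13 corepressors and coactivators of the family, all tested, 2 rose and 3 fell in KOA, 2 and 3 in iR_KOA, 2 and 4 in iR_KOA_D3, 3 and 2 in iR_WTA, and 2 and 3 in iR_WTA_D3. CREBBP, a histone acetyltransferase, rose by 0.49 in KOA (adjusted p = 3.66e-08) and by 0.29 to 0.38 in the others. The median of the list lay between -0.06 and 0.04, and that of all tested genes between -0.051 and -0.025. HDAC3, a histone deacetylase of the NCOR complex, fell in all 5 backgrounds, by -0.20 to -0.38, and was also lower in the unexposed knockout (-0.29 without D3, -0.26 with D3). In the unexposed knockout 1 of the 13 was higher and 6 lower without D3, and 3 higher and 9 lower with D3. For this and the lists that follow, the shares of all tested genes are 11.4 to 18.8 percent higher and 17.2 to 27.8 percent lower with exposure over the 5 backgrounds. In the unexposed knockout they are 27.9 percent higher and 37.4 percent lower without D3, and 24.8 percent higher and 44.3 percent lower with D3. Against them, the counts of these short lists are descriptions, and nothing particular to a list is read from them.

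Relatives of the family were counted in the same way. Of 8 other Kruppel-like factors in the table, KLF7 and KLF12 were tested, and both were higher in the unexposed knockout. KLF7 differed by 0.50 without D3 (adjusted p = 8.77e-09) and by 0.77 with D3 (adjusted p = 2.14e-12), and KLF12, a CTBP-binding repressor, by 0.45 (adjusted p = 4.01e-08) and 0.40 (adjusted p = 2.6e-07). Both rose with exposure in KOA and iR_KOA, KLF12 alone in iR_KOA_D3, and KLF7 alone in iR_WTA and iR_WTA_D3. The SP factors bind the same GC box. The table held 9 of them, of which 4 were tested, and none rose with exposure, while 4 fell in KOA and 3 fell in each of the other backgrounds. Their median lay between -0.26 and -0.15. SP2 was the one that fell in all 5, by -0.20 to -0.30. SP3 was higher in the unexposed knockout (0.46 without D3, 0.44 with D3), and SP9 was lower (-2.09 and -2.30).

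Genes on known routes to the family moved in both directions. Of 8 genes of the ERK5 and MEF2 route, which induces KLF2 and KLF4 in endothelium, 6 were tested. In each background 1 rose with exposure, MEF2D, a transcription factor of that route, by 0.17 to 0.46. MAP3K3, a kinase upstream of ERK5, fell in all 5, by -0.20 to -0.39, and in KOA, iR_KOA_D3 and iR_WTA another member fell as well. MAPK7, which encodes ERK5, fell by -0.69 in KOA (adjusted p = 4.73e-09). In iR_KOA_D3 its difference was -0.63 (adjusted p = 2.73e-08), and in iR_WTA the member was MAP3K2 (-0.25). In the unexposed knockout 5 of the 6 were higher without D3 and 4 with D3, and none was lower. Of 8 genes of the TGF-beta route, all tested, 5 rose and 1 fell in KOA, 3 and 1 in iR_KOA, 4 and 0 in iR_KOA_D3, 3 and 1 in iR_WTA, and 5 and 2 in iR_WTA_D3, with medians from 0.12 to 0.20. SMAD7, an inhibitor of TGF-beta receptors, rose in the backgrounds other than iR_KOA_D3, by 0.75 in KOA (adjusted p = 3.2e-09) and by 0.63 in iR_KOA (adjusted p = 2.27e-07). Its exposure difference was lower with D3 in iR_KOA (-0.56, adjusted p = 0.00147) and in iR_WTA (-0.40, adjusted p = 0.0352). TGFBR2, a TGF-beta receptor, was lower in the unexposed knockout (-1.11 without D3, -0.79 with D3), in a list with 1 higher and 3 lower without D3 and 2 higher and 3 lower with D3.

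KLF9 is a classical target of the glucocorticoid receptor, and the other genes of that list moved in both directions. Of 7 such genes 5 were tested, and 2 rose and 1 fell in KOA and in iR_KOA, while 3 rose and 1 fell in each of the other 3 backgrounds. Their median lay between 0.08 and 0.27. DUSP1, a phosphatase that shuts off stress kinases, stood at 164, 151 and 152 FPKM in KOA_EX, against 51.6, 52.9 and 48.4 FPKM in KOA_NE, a difference of 1.59 (adjusted p = 7.39e-20). It rose in the other 4 backgrounds too, by 0.13 to 0.77. FKBP5, a chaperone partner of the receptor, fell in all 5, by -0.24 to -0.30. In the unexposed knockout 1 was higher and 4 lower without D3, and 1 higher and 3 lower with D3. Of 7 ubiquitin ligases and deubiquitinases that act on Kruppel-like factors, all tested, 5 fell in KOA, 6 in iR_WTA_D3 and 4 in each other background, and 1 rose, VHL in iR_KOA_D3 (0.15). Their median lay between -0.26 and -0.20. WWP1, a ligase that targets KLF5 and KLF2, fell by -0.18 to -0.31, and FBXO32, a muscle atrophy ligase that targets KLF4, by -0.43 to -0.80. FBXO32 was also lower in the unexposed knockout (-2.15 without D3 and -1.58 with D3), whereas WWP1 was higher (0.59 and 0.67). In that list 1 was higher and 4 lower without D3, and 1 higher and 5 lower with D3.

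Of 14 known targets of the family 11 were tested. With exposure 6 rose and 1 fell in KOA, 6 and 2 in iR_KOA, 4 and 2 in iR_KOA_D3, 6 and 1 in iR_WTA, and 4 and 0 in iR_WTA_D3, with medians from -0.02 to 0.19. MYC, which KLF4 and KLF11 can repress, rose in all 5 by 0.62 to 0.82, and CDKN1A, which KLF4 and KLF6 can induce, rose by 0.25 to 0.72. CCND1, a cyclin, rose by 0.23 to 0.48. In the unexposed knockout 3 targets were higher and 7 lower, both without and with D3. MAOA, an amine oxidase that KLF11 can regulate, was higher by 1.20 without D3 and by 1.44 with D3. The lipid receptor S1PR1, a target of KLF2 in T cells, reached 1 FPKM in all 18 knockout libraries (1.41 to 3.26 FPKM) and in none of the 12 wild-type ones (0.0376 to 0.161 FPKM). It entered the tests through the knockout alone, so it is counted among the 3 only as a description. THBD, the thrombomodulin gene that KLF2 induces in endothelium, was lower by -1.28 without D3 and -0.95 with D3. The members of this list differ in which factor acts on them and in the direction, so its count has no single expected sign. In unexposed cells with D3, and with iR in the knockout, between 0 and 5 genes of each of these 8 lists passed in either direction. Of the 11 targets, 4 were higher and 3 lower with D3 in iR_KOA, and 2 and 5 in iR_WTA. Beside them, 19.2 percent of all tested genes were higher and 34.5 percent lower with D3 in iR_KOA. The shares were 22.3 and 26.3 percent in iR_WTA, and 18.7 and 19.8 percent with iR. Nothing particular to a list is read from these counts.

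For the 8 members whose group means spanned at least 1, the tested genes with the most similar pattern over the 10 group means were found by the root mean square difference after centring. KLF13 was closest to TJP3 at 0.14, a tight junction gene, and to MAGEH1 at 0.15. KLF16 was closest to ZMYM3 and HOXC4 at 0.12 each, and KLF5 to RGCC at 0.10 and the calpastatin gene CAST at 0.11. KLF10 was closest to KLF6, at 0.20, and then to MIR22HG, at 0.20. Its nearest gene was thus another member, though at the largest nearest distance among the 8 members. KLF9 was closest to GPCPD1 and ORAI3 at 0.16 each, KLF11 to SFT2D3 and ZHX2 at 0.15 each, KLF4 to MYBBP1A at 0.11 and PHF7 at 0.12, and KLF2 to PIM1 and PLEKHM1 at 0.14 each. Likeness here is on the log2(FPKM + 1) scale, which understates changes of genes near 1 FPKM. It is therefore not likeness in fold change. RGCC had group means of 0.0669 FPKM (iR_WTA_D3_EX) to 1.48 FPKM (KOA_EX), where KLF5 had 7.38 to 22.4 FPKM. PLEKHM1 had 6.14 to 9.76 FPKM, where KLF2 had 0.317 to 1.75 FPKM. Which libraries took RGCC past the filter was not examined. These are descriptions over 10 groups that share one set of libraries.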

How the data were processed

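RNA from 30 A549 libraries was sequenced. The authors deposited 1 table of FPKM values per gene and library. Per the submitters' processing notes, fastp, HISAT2, HTSeq and GRCh38 were used, with no versions given. No source used here states the annotation, gene lengths, strand setting or filters. A further 6 value columns matched no sample and were not used. For 26788 of 26801 genes, values were whole multiples of what 1 read was worth within a tolerance of 0.01, which gave the depth. FPKM removes depth and length but not composition, so a few strongly changed genes can shift all others.

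Groups followed the labels. Values were taken as log2(FPKM + 1), and the 12086 genes that reached 1 FPKM in 3 or more libraries were tested with limma 3.58.1 in R 4.3.3, with a mean-variance trend and 1 model of 10 group means (20 residual degrees of freedom). Tests were two-sided, with Benjamini-Hochberg adjustment over all tested genes within each of 15 comparisons, and the threshold was an adjusted p of 0.05. The procedure was tested on simulated data. The alternatives were a pseudocount of 0.1, no filter, a filter on a mean of at least 1 FPKM, median-of-ratios scaling (factors 0.923 to 1.048), quantile normalization, a fit of only the groups compared, a replicate block, and leaving out each library in turn.

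All 10 members are named, with RSRP1 as the check of the knockout labels, up to 4 called genes of largest difference per list and comparison, and the 2 genes of most similar pattern for members spanning at least 1. MAP3K3, HDAC3, FKBP5, VHL and WWP1 were also named after their values were seen. The members and lists were chosen with earlier results of these data known. Same-numbered libraries deviated together over 0.1 in all 3 pairs only for exposure in iR_KOA_D3 (correlations 0.115, 0.156 and 0.168). For exposure in iR_WTA_D3 the correlations were -0.09, 0.267 and 0.306. In every exposed group HSPA1B was lower in replicate 3 than in replicate 1, going from 494 to 384 FPKM in KOA_EX. Whether the numbers pair samples cannot be decided from these values. The main tests used no pairing, and a replicate block was run as an alternative. Promoter windows come from RefSeq on GRCh38.p14.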

Additional observations from a re-analysis of the deposited data

Results flagged for a closer look

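For 13 values the exposure difference itself differed between 2 backgrounds past the adjusted threshold in limma, on the log2(FPKM + 1) scale. With D3, KLF9 fell more in the knockout than in the wild type (-0.71). In the knockout, iR went with a higher exposure difference of KLF10 (0.94), KLF2 (0.78), KLF11 (0.54), KLF4 (0.50) and KLF6 (0.24) and with a lower one of KLF5 (-0.48). D3 went with a lower exposure difference in iR_KOA of KLF10 (-0.73), KLF9 (-0.51), KLF11 (-0.44) and KLF6 (-0.29). In iR_WTA it did so for KLF11 (-0.64) and KLF10 (-0.59). The comparisons within iR_KOA share libraries with each other, and the group of 3 knockout libraries without iR has no wild-type counterpart here. The cause of these differences was not tested.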

How the results depend on the processing

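Of 78 called differences of the 10 members, 62 stayed past the threshold under every alternative that gave a value and every library left out, 16 were lost under at least 1, and 0 changed sign. KLF2 had no value under the filter on the mean, so its 4 calls among the 62 were not tried there. They include its genotype differences without and with D3, which are given only as a description. Counts of members past the threshold stayed within 1.5 times in 222 of 226 refits. The D3 comparison in unexposed iR_KOA gave 8 under quantile normalization in place of 5. The comparison of exposure by D3 in iR_KOA gave 1 with only the groups compared in place of 4, and 2 to 5 when 1 library was left out. The cause was not tested.

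The values that changed sign were all below the threshold. Under quantile normalization KLF2 gave 0.01 for exposure in iR_KOA_D3, KLF4 gave 0.08 for genotype with D3 and KLF11 gave 0.03 for iR in KOA. Median-of-ratios scaling gave 0.05 for KLF4 and genotype with D3. Leaving out 1 library gave ranges of -0.12 to 0.08 for KLF2 and -0.02 to 0.05 for KLF3 with exposure in iR_KOA_D3, 0.00 to 0.06 for KLF3 in KOA and -0.16 to 0.01 for KLF5 in iR_KOA. For iR in KOA the ranges were -0.16 to 0.04 for KLF2 and -0.08 to 0.07 for KLF11, and for KLF4 and genotype with D3 -0.06 to 0.02.

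With a replicate block the counts past the threshold were 7, 8, 5, 7 and 8 for exposure in KOA, iR_KOA, iR_KOA_D3, iR_WTA and iR_WTA_D3, 6 and 8 for genotype without and with D3, 5 and 5 for D3, 6 for iR, and 0, 1, 6, 4 and 2 for the interactions, the same counts as without it. A replicate block with only the 2 groups of iR_KOA_D3, added after seeing the data, gave 5. KLF2 had the fewest reads, 22 to 234 per library, and whether depth sets its spread was not tested.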
